A study of Mus musculus with 12 samples.

Results

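Metallothioneins and the zinc response were examined in gastrocnemius, a calf muscle, through 5 genes: the metallothionein genes Mt1, Mt2 and Mt3, the zinc-sensing transcription factor gene Mtf1 and the zinc exporter gene Slc30a1. They were taken by symbol from a table of 24528 genes, and all 5 were among the 12216 genes that reached 10 estimated reads or more in 6 or more libraries and so could be tested. The set was put together with the difference between KO and WT already known, so that difference is described for these genes and not tested. The WT group was 6 muscle libraries from male mice of genotype Ank2f/f, which carry floxed alleles of the ankyrin-B gene and no Cre. The KO group was 6 libraries from male mice of genotype Ank2f/f; HSA-Cre+, in which Cre runs from the human skeletal alpha-actin promoter, active in muscle fibres and not in the other cells of the tissue. All mice were 4 months old, and controls were littermates housed with the KO mice. The labels do not say that every library is a different mouse, so p-values measure the spread between these libraries. Because no group carries Cre without floxed alleles, the deletion and the Cre transgene cannot be told apart.

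Metallothioneins are small cysteine-rich proteins that bind zinc and copper and can take up cadmium. When free zinc rises in the cytosol, MTF-1, the product of Mtf1, binds metal response elements in the promoters of Mt1, Mt2 and Slc30a1, and the transporter ZnT1, made from Slc30a1, moves zinc out of the cell. Mt1 and Mt2 are also induced by glucocorticoids and by interleukin-6 acting through STAT3. Mt3 is best known from brain.

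Mt1, Mt2 and Mt3 lie on the plus strand of chromosome 8 (mm10), Mt3 at 94152607 to 94154146, Mt2 at 94172664 to 94173568 and Mt1 at 94179082 to 94180327. Mtf1 lies on chromosome 4 at 124802104 to 124849800 and Slc30a1 on chromosome 1 at 191906767 to 191913247. Promoter windows of 300 bases were available for all 5 genes from RefSeq (GRCm38.p6), covering 250 bases before and 50 after the RefSeq start. Each was searched on both strands for the core of the metal response element, spelled as TGCACNC or TGCGCNC. The 4 promoters below are shown because Mt1, Mt2 and Slc30a1 are known MTF-1 targets and Mt3 is not induced by zinc in the same way. Only bases before the annotated starts are printed, 5′ to 3′ on the plus strand, with matches in capitals. The stretches are chr8:94178839-94179081 for Mt1, chr8:94172368-94172617 for Mt2, chr8:94152357-94152606 for Mt3 and chr1:191906531-191906766 for Slc30a1.
Mt1: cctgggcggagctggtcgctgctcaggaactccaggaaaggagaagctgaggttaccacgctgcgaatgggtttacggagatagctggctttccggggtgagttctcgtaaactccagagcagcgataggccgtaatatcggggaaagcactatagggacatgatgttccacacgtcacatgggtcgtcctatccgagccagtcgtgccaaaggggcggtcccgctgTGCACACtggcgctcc
Mt2: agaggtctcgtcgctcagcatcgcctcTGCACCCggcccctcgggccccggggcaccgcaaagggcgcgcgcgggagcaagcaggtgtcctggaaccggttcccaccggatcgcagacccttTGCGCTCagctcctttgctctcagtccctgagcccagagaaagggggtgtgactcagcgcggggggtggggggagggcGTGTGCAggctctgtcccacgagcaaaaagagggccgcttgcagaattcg
Mt3: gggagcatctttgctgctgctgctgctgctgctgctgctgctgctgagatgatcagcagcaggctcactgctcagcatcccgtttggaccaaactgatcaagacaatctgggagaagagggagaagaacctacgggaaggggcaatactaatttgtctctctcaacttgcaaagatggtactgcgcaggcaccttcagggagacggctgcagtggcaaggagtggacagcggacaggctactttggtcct
Slc30a1: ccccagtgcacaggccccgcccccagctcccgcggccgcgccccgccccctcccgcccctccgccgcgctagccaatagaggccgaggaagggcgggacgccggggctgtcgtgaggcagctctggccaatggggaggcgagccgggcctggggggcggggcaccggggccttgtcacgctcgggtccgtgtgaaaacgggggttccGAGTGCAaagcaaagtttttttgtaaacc
Over the 300-base window Mt2 held 4 matches, Mt1 held 3, Slc30a1 held 2, Mt3 held 1 and Mtf1 held 0, and no matches overlapped. Those not capitalised above lie after the printed bases. Of 32851 promoter windows of this length, 25.7% held at least 1 match, 7.11% at least 2, 1.97% at least 3 and 0.517% at least 4. Elements outside these windows, including any more than 50 bases after the RefSeq start, were not searched, so the counts need not be complete. A match is a description of the letters and not a measured binding site.

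The deposited values are on a log2 scale whose floor, 5.57, marks a gene without reads, and differences between low values are compressed on it. The libraries held between 12283809 and 18706103 estimated reads. Ank2 was lower in all KO libraries, at 26.3% to 44.3% of the WT mean on a linear scale, and stood at 28.9% in KO 2. Of the 12216 tested genes, 757 (6.20%) differed between KO and WT in limma at a Benjamini-Hochberg adjusted p at or under 0.05, 381 higher in KO (3.12%) and 376 lower (3.08%). Without KO 2, which lay within the WT range for several genes described here, the number was 1515. Without KO 6 it was 194, near the 205 without WT 3 and the 207 without WT 2. All 7 muscle fibre markers were measured and 0 were called. In bulk tissue, a change in the number of cells of a type and a change of RNA per cell cannot be told apart.

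Mt1 was higher in 5 of 6 KO libraries than in any WT library. In WT its log2 value had a lowest, median and highest of 7.26, 7.44 and 7.65, and in KO of 7.30, 8.66 and 10.06. The low end of KO was KO 2, inside the WT range, and the high end was KO 6. WT averaged 7.47 ± 0.14 and KO 8.55 ± 0.95 (SD, n = 6 each), a difference of 1.08 (SE 0.38). Put back to scaled reads, the KO mean was 3.81 times the WT mean, 2.53 times without KO 6 and 4.41 times without KO 2. Between 66.8 and 1092 estimated reads per library stood behind these values.

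Mt2, the neighbour and close relative of Mt1, had the same lowest and highest library in KO. In WT the highest library was WT 5 for Mt2 and WT 6 for Mt1. Its lowest, median and highest log2 values were 6.68, 6.73 and 6.91 in WT and 6.61, 8.31 and 9.62 in KO. Again 5 of 6 KO libraries lay above the whole WT range, while KO 2 lay just below it and KO 6 was highest. The means were 6.77 ± 0.09 and 8.21 ± 1.02 (SD, n = 6 each), a difference of 1.44 (SE 0.41). On the linear scale the KO mean was 7.82 times that of WT, 5.39 times without KO 6 and 9.24 times without KO 2. The annotated antisense gene Gm45774 shares 432 exonic bases with Mt2, and libraries without strand cannot separate the reads of such a pair.

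Mt3 went from a near-floor level in WT to a clear signal in KO, and it was the one metallothionein whose groups did not overlap. Its lowest, median and highest log2 values were 6.07, 6.11 and 6.36 in WT and 6.41, 7.94 and 8.49 in KO. KO 2 was the lowest KO library here too, only just above the highest WT library, but the highest was KO 1, not KO 6. The means were 6.18 ± 0.14 and 7.78 ± 0.72 (SD, n = 6 each), a difference of 1.60 (SE 0.28). In estimated reads the WT libraries held 5.05 to 14.2 and the KO libraries 14.5 to 324, so the linear ratio of 17.2 rests on few WT reads. Mt3 passed the filter on low values through the KO group, with at least 10 reads in 6 KO and 2 WT libraries. The fourth gene of the cluster, Mt4, known from stratified epithelium, reached at most 2.00 estimated reads in any library and was not tested.

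**Figure D1:**
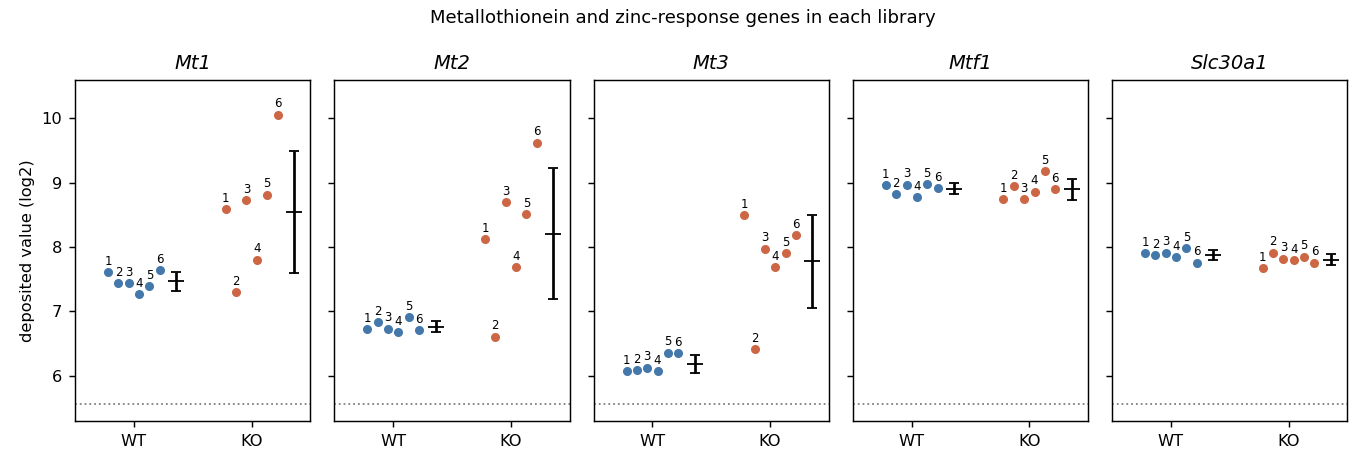
Deposited log2 values of Mt1, Mt2, Mt3, Mtf1 and Slc30a1 in 6 WT (blue) and 6 KO (orange) libraries, numbered by replicate, with the mean and SD in black beside each group and the floor of the table as a dotted line. KO 2 sits at the WT level for the 3 metallothioneins, KO 6 is highest for Mt1 and Mt2 and KO 1 for Mt3, while Mtf1 and Slc30a1 overlap between groups.

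The sensor and the exporter gave small differences. Mtf1 had lowest, median and highest log2 values of 8.77, 8.94 and 8.98 in WT and of 8.74, 8.88 and 9.18 in KO, a difference of -0.01 (SE 0.08). KO 5 was the highest of all 12 libraries, and the groups overlapped. Slc30a1 had values of 7.76, 7.89 and 7.98 in WT and of 7.68, 7.81 and 7.92 in KO, a difference of -0.08 (SE 0.06). No KO library exceeded the WT range of Slc30a1, and 2 lay below it. Both genes share exonic bases with an antisense gene: 721 bases of Mtf1 with 1110065P20Rik and 468 of Slc30a1 with 1700034H15Rik. The first held 136 to 250 estimated reads per library against 341 to 489 for Mtf1, and the second at most 11.0.

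By size of rise among the tested genes, Mt3 was rank 8, Mt2 rank 9 and Mt1 rank 20 of 12216. Only Mt3 was among the called genes, 1 of 5 members beside 6.20% of all tested genes, and only Mt3 had groups that did not overlap with KO higher, beside 1.27% of all (either direction 2.47%). Since the set was chosen on this contrast, nothing is read from these counts. The 3 metallothionein transcripts are short, 511 to 549 bases. With the tested genes put in 10 bins by transcript length, they belong to the shortest bin, whose median difference was 0.10 against -0.10 in the longest bin, which holds Mtf1. After a correction for transcript length the differences were 0.93 for Mt1, 1.28 for Mt2, 1.44 for Mt3 and 0.09 for Mtf1, which had been negative. The same correction gave Slc30a1 -0.0045. The longest stretch of identical bases was 20 between the main transcripts of Mt1 and Mt2, 27 between Mt1 and Mt3 and 20 between Mt2 and Mt3.

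Per kilobase of transcript, the make-up of the metallothionein pool could be compared between genes. The sum of scaled reads per kilobase over the 3 genes ran from 203 to 301 in WT, and in KO from 223 in KO 2 to 3516 in KO 6. Mt1 was the most abundant form in WT, at 67.0% ± 5.32 of that sum, followed by Mt2 at 26.6% ± 4.35 and Mt3 at 6.41% ± 2.50 (SD, n = 6). The KO shares were 45.0% ± 10.4, 33.0% ± 7.18 and 21.9% ± 9.82 (SD, n = 6). Mt3 made up 35.7% of the sum in KO 1 and 10.8% in KO 6, against 3.87% to 10.1% in WT. On the same scale, Mtf1 stood at 51.1 ± 3.67 in WT and 51.0 ± 7.22 in KO, and Slc30a1 at 28.7 ± 2.22 and 26.5 ± 2.29 (SD, n = 6 each).

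**Figure D2:**
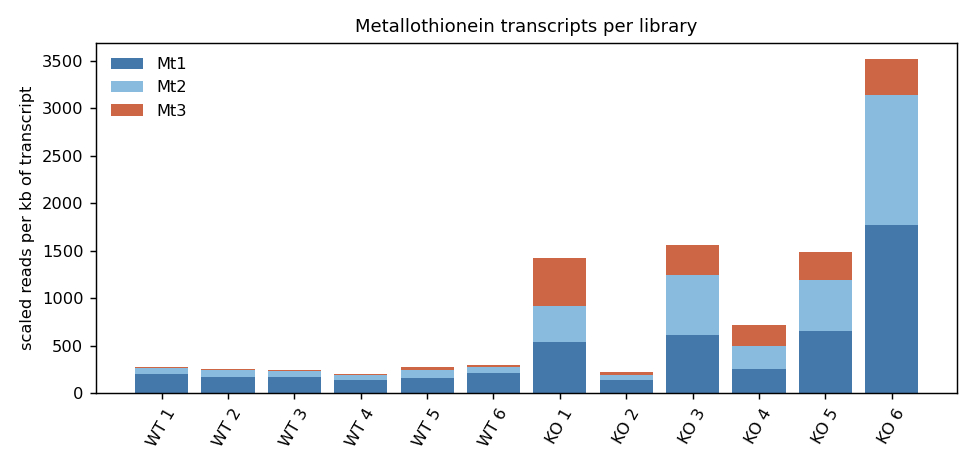
Scaled reads per kilobase of transcript for Mt1, Mt2 and Mt3, stacked, in each of the 12 libraries. WT libraries and KO 2 reach at most 301, and KO 6 reaches 3516, mostly from Mt1 and Mt2.

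Within the KO group Mt1 and Mt2 tended to rise and fall together, short of the threshold after adjustment. KO 2 lay in or just below the WT range for both genes, so this correlation is not free of the contrast that chose them. Over the 6 KO libraries Pearson's r was 0.97 (exact permutation p = 0.00417) and Spearman's rho 0.94 (exact permutation p = 0.0167). After Benjamini-Hochberg adjustment over the 20 correlations computed (10 gene pairs in 2 groups) the exact p was 0.0833, above the threshold. Without the 2 libraries farthest from the median of Mt1, r was 0.91. In the 6 WT libraries, where both genes spanned a narrow range, r was -0.17 (exact permutation p = 0.788; adjusted p = 0.926). Mt3 and Slc30a1 gave r of -0.85 in KO (exact permutation p = 0.0292, adjusted p = 0.292), and -0.48 without the 2 libraries farthest from the median of Mt3. None of the 20 correlations passed after adjustment, and 2 had an unadjusted exact p at or under 0.05.

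The genes whose deviations from the group means were most like those of Mt1 and Mt2 over 12 libraries, among 11562 compared, were Mesdc1 (r = 0.96), the beta-tubulin gene Tubb6 (0.93), Tram1 of protein translocation into the endoplasmic reticulum (0.93), Arl6ip5 (0.92) and the annexin gene Anxa4 (0.90). For these 5 genes r was 0.94 to 0.99 within KO and -0.05 to 0.56 within WT, so the likeness rests on the KO libraries. The measure itself leans on KO, where the SDs of Mt1 and Mt2 were 0.95 and 1.02, against 0.14 and 0.09 in WT. As the highest of 11562, these correlations were also selected to be high. Of these, Tubb6 rose in KO by 0.49 (SE 0.12, limma adjusted p = 0.033) and Arl6ip5 by 0.54 (SE 0.12, limma adjusted p = 0.0183). The Tubb6 call was lost without any 1 of 8 libraries, all but WT 4, KO 2, KO 4 and KO 5 (adjusted p up to 0.0709), and that of Arl6ip5 without WT 3 (0.0508). Those most like Mt3 were Iqgap2 (0.94), the translation elongation factor gene Eef1a1 (0.94), the reductase gene Ptgr1 (0.93), Arc (0.92) and Sh2d4a (0.92). Without KO 2 these 5 correlations fell to between 0.58 and 0.81, so they lean on that library. Ptgr1 rose by 0.54 (SE 0.12, limma adjusted p = 0.0171) and was called under each of the 21 alternatives that tested it. Eef1a1 rose by 0.87 (SE 0.21, adjusted p = 0.0335) and Sh2d4a by 0.76 (SE 0.19, adjusted p = 0.0336), and both calls were lost without any 1 of the same 8 libraries (adjusted p up to 0.0785 and 0.0781). Sh2d4a also lost its call with limma-voom (0.0556) and the replicate block (0.0909).

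Zinc transporters fall into the SLC30 family, which moves zinc out of the cytosol or, for ZnT9, out of mitochondria, and the SLC39 family, which moves it into the cytosol. Of 9 SLC30 genes other than Slc30a1, 6 were tested, 2 fell, none rose and all 6 estimates were negative, with a median of -0.23 against -0.01 over all tested genes. Of all tested genes, 3.08% were called lower. Slc30a9, the mitochondrial transporter gene, fell from 10.74 ± 0.07 to 10.24 ± 0.26 (SD, n = 6 each), by 0.50 (SE 0.10, limma adjusted p = 0.0144), and was called under every alternative run (adjusted p up to 0.0415). Its groups did not overlap, with KO at 9.86 to 10.57 and WT at 10.64 to 10.84, as in 1.20% of all tested genes with KO lower. Slc30a2, which encodes a vesicular transporter, fell from 9.12 ± 0.26 to 7.84 ± 0.73 (SD, n = 6 each), by 1.28 (SE 0.30, limma adjusted p = 0.0359). Its KO 2 value of 9.20 lay in the WT range of 8.60 to 9.33, and the other KO libraries at 7.21 to 8.03 lay below it. The Slc30a2 call ended when a single library was left out for 3 KO libraries (KO 1, KO 3, KO 6) and for every WT library but WT 4 and WT 5 (adjusted p up to 0.0882), as did the replicate block (0.0835).

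Slc30a3, whose product ZnT3 loads zinc into synaptic vesicles, did not pass the filter and is named after its values were seen. It stood at the floor in all 6 WT libraries and above it in all 6 KO libraries, with estimated reads of 82.2, 4.00, 57.1, 41.1, 13.0 and 35.1 in KO 1 to KO 6. The lowest was again KO 2 and the highest KO 1, the library with the highest Mt3. With reads pooled over each group and set against depth, and a floor of 3 reads for WT, Slc30a3 was at least 67.7-fold higher in KO. That bound covers counting error only and not the spread between libraries. Without the filter on low values, over 18054 genes, its difference was 1.10 (SE 0.15, limma adjusted p = 0.00132). No annotated gene shares exonic bases with it.

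Of 14 SLC39 genes, 10 were tested and none was called, with 5 estimates positive, 5 negative and a median of 0.01. At an unadjusted p at or under 0.05 there were 3, where 3179 of all 12216 tested genes (26.0%) reached that p. The largest were Slc39a2 (0.35, SE 0.10, limma adjusted p = 0.0506) and Slc39a6 (0.21, SE 0.08, limma adjusted p = 0.107). Slc39a2 was called under 7 of the 21 alternatives that tested it, with adjusted p from 0.0297 to 0.123 over all of them.

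**Figure D3:**
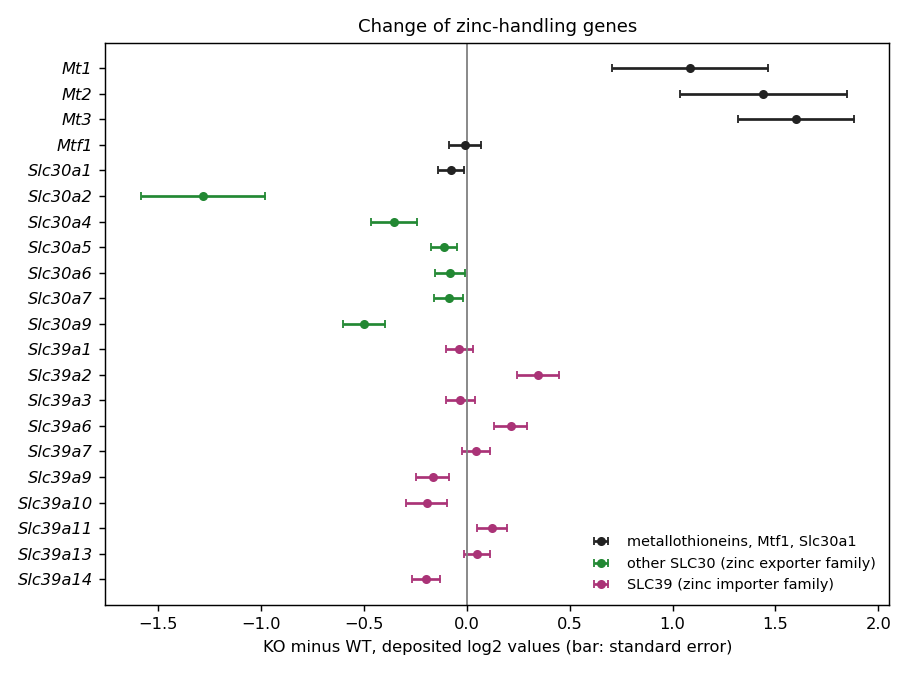
KO minus WT difference of the deposited log2 values with its standard error (bars) for the 5 genes of the set (black) and for the tested genes of the SLC30 (green) and SLC39 (purple) families. The metallothioneins lie between 1.08 and 1.60, Slc30a2 at -1.28, and the 10 SLC39 genes between -0.20 and 0.35.

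Of 14 other genes known to answer to metals or to MTF-1, 11 were tested, 1 fell (3.08% of all tested genes were called lower) and none rose. Their estimates were positive for 5 and negative for 6, with a median of -0.02. The gene that fell was Slc40a1, the iron exporter ferroportin (-1.39, SE 0.24, limma adjusted p = 0.0116), called under every alternative run. Named after their values were seen, the haem oxygenase gene Hmox1 gave 0.23 (adjusted p = 0.243), the glutathione synthesis genes Gclc and Gclm -0.04 (0.836) and -0.02 (0.922), and the zinc importer gene Slc39a10, which MTF-1 is known to repress, -0.19 (0.223), all in limma. Genes beside the cluster were tested as well. Of 7 annotated genes within 200 kb of the metallothioneins, 5 were tested and none was called, and 2 had an unadjusted p at or under 0.05, beside 26.0% of all tested genes. Bbs2 of the ciliary BBSome gave 0.27 (SE 0.08, limma adjusted p = 0.0572), and was called without KO 2 (0.0233), without KO 5 (0.0379) and with quantile normalization (0.0456).

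KO 6, the library with the most Mt1 and Mt2, was also highest for several genes of the acute-phase and STAT3 list. Among the tested genes of the list, Stat3, Il6ra and Il6st were not highest there. The share of all tested genes that were highest in KO 6 was not counted. Of the 14 genes on the list, 10 were tested and none was called, with 8 positive estimates and a median of 0.22. At an unadjusted p at or under 0.05 there were 3, a share near the 26.0% of all tested genes. Socs3, a feedback inhibitor of cytokine signalling, was 9.08 in KO 6 against 6.91 to 7.68 in the other KO libraries and 6.40 to 7.41 in WT (0.77, SE 0.34, limma adjusted p = 0.186). Junb was 9.20 in KO 6 against 7.67 to 8.32 in the other KO libraries and 7.68 to 7.90 in WT (0.48, SE 0.19, limma adjusted p = 0.141), and was called without KO 2 (0.041). The receptor subunit gene Il6st gave -0.46 (SE 0.14, limma adjusted p = 0.0579), and was called without KO 2, KO 4 or KO 5 and with the replicate block. Named after their values were seen, Serpina3n was 7.54 in KO 6, and the cytokine-induced factor gene Cebpd was 8.97, each above all other libraries. Il6 itself reached at most 3.07 estimated reads. The part of these genes in the metallothionein values was not tested.

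**Figure D4:**
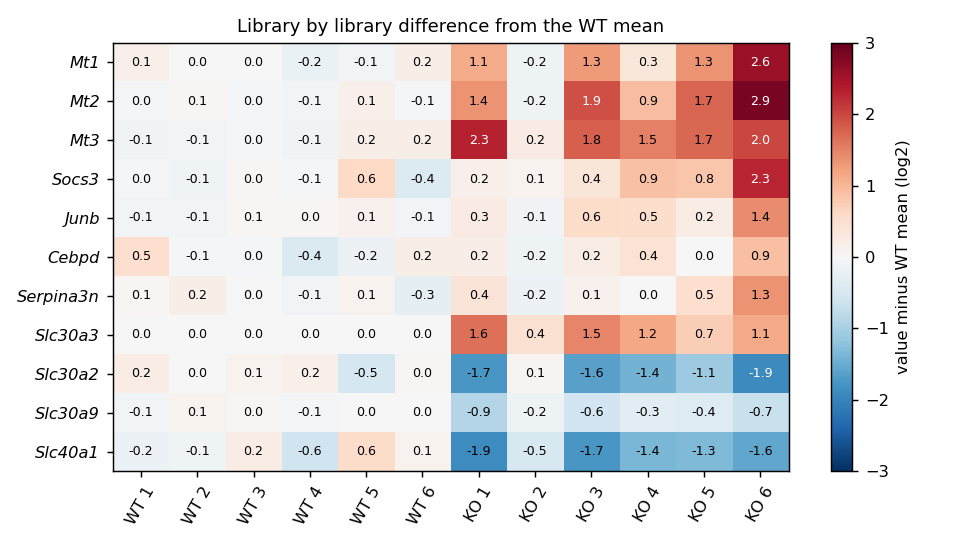
Difference of each library from the WT mean on the deposited log2 scale, by gene (rows) and library (columns), with red for higher and blue for lower. KO 2 is close to WT in most rows, KO 6 is highest for Mt1, Mt2, Socs3 and Junb, and KO 1 for Mt3 and Slc30a3.

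Markers of cell types other than muscle fibres were measured beside these genes. Summed scaled reads of 6 macrophage markers ran from 333 to 1185 in WT and from 389 in KO 2 to 1134 in KO 6, with 0 of 6 called. Those of 6 fibroblast markers ran from 3744 to 8797 in WT and from 4857 in KO 2 to 8753 in KO 6, with 0 of 6 called. For both lists KO 2 was the lowest and KO 6 the highest KO library, as for Mt1 and Mt2, and the groups overlapped. The 6 Schwann cell markers, with 0 called, ran from 720 to 2767 in WT and from 269 in KO 6 to 5273 in KO 1. KO 6 had the lowest Schwann cell sum and the second highest Mt3 value of the KO libraries, at 8.18. KO 1 had the highest Schwann cell sum and the highest Mt3 value, at 8.49. The 5 neuron markers summed to 34.5 to 52.2 in WT and 27.6 to 34.4 in KO, with the ranges only just apart. Only 1 of them, Stmn2, passed the filter (-0.34, limma adjusted p = 0.0505). Stmn2 made up most of that sum, with mean scaled reads of 35.8 in WT and 18.8 in KO. Snap25 went from 2.24 to 1.89, while Tubb3 went from 3.33 to 8.28, Syt1 from 0 to 1.32 and Rbfox3 from 0.38 to 0.44. The 6 adipocyte markers summed to 58.0 to 236 in WT and 31.9 to 126 in KO, and 1 of 3 tested, Adipoq, fell (-0.34, limma adjusted p = 0.0429). The 5 satellite cell markers summed to 470 to 563 in WT and 394 to 494 in KO, and 1 of 4 tested, Cdh15, fell (-0.37, limma adjusted p = 0.0342). Of all tested genes, 3.08% were called lower. Cdh15 made up most of the satellite cell sum, with mean scaled reads of 384 in WT and 279 in KO. Pax7 went from 29.4 to 33.5, Chodl from 79.8 to 94.9, Calcr from 7.06 to 9.24 and Myf5 from 23.4 to 23.1. The 6 endothelial markers summed to 3499 to 4751 in WT and 2989 to 4515 in KO, with 0 of 6 called. The mean sums of the adipocyte, satellite cell and endothelial lists were lower in KO, at 68.9 against 169, 439 against 523 and 3522 against 4157, and their ranges overlapped. Each sum was compared between groups by an exact permutation test, adjusted by Benjamini-Hochberg over all lists. The adjusted p was 0.0519 for adipocyte, 0.026 for satellite cell, 0.113 for endothelial and 0.0173 for neuron markers. For the macrophage, fibroblast and Schwann cell lists it was 0.716 to 0.926. Cdh15 and Stmn2 weigh most in the satellite cell and neuron sums. No marker of these 7 lists was at the floor in all libraries. Their part in the metallothionein values was not tested.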

How the data were processed

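Poly-A RNA of gastrocnemius was sequenced in 12 libraries. The authors deposited 1 table of log2 values; per the submitters' processing notes fastp, STAR, featureCounts and build mm10 were used, and neither versions, annotation nor normalization are given in the sources used here. The columns share 1 floor, the shape of a variance-stabilizing transformation, so the values were put back to scaled reads by its closed form. The smallest step in each library was taken as 1 read, and 90.0% to 94.0% of low values then fell within 0.1 of a whole number, so estimated reads are approximate and cover counting error only. These served the filter, depth and linear ratios.

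The 12216 genes that reached 10 estimated reads in 6 libraries or more were fitted with limma 3.58.1 (R 4.3.3), group as the only term, with trend and robust moderation, two-sided, Benjamini-Hochberg threshold 0.05. Differences are KO minus WT. No pseudocount or second logarithm was applied in the main fit. Tested on simulated data of these 12216 genes, the fit found 78% of 100 genes shifted by 0.5 and 100% of 100 shifted by 1, with 7 false calls. The simulated noise was normal, independent between genes and of the same SD in both groups. It did not carry the wider KO spread of genes such as Mt1 and Mt2, so these figures do not apply to them. The genes of the set, the lists and the rule for named genes were chosen with earlier results of these data known. The rule took all called genes of a list, or else its 2 largest differences, and the 5 genes most like Mt1 and Mt2 or Mt3. Positions and transcript lengths come from GENCODE M21. Alternatives covered tests, filters, scalings, pseudocounts, a replicate block, transcript length and the omission of each library. One gene that this rule names is not reported here.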

Additional observations from a re-analysis of the deposited data

How the results depend on the processing

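The differences of Mt1, Mt2 and Mt3 stayed positive under every alternative that tested them. They were larger without the compression of the deposited scale at low values. For Mt2 the difference was 2.47 with limma-voom on estimated reads, 2.38 with log2 of scaled reads and a pseudocount of 1, and 2.40 with 0.1, and for Mt3 it was 3.87, 3.69 and 3.83. Leaving out single libraries gave 0.78 to 1.33 for Mt1, 1.16 to 1.76 for Mt2, 1.46 to 1.87 for Mt3, -0.06 to 0.02 for Mtf1 and -0.10 to -0.05 for Slc30a1. Of the 5 genes of the set, 0 were called with limma-voom, 0 of the 3 left under the stricter filter, which removed Mt2 and Mt3, 2 without trend and robust moderation, and 1 to 3 without single libraries. Over all genes the calls were 634 of 12216 with limma-voom, 598 of 9821 under the stricter filter and 711 of 12216 without trend and robust moderation. As the set was chosen on this contrast, nothing is read from its counts. Calls over all genes ran from 194 to 1515 without single libraries, with 272 without KO 1, 225 without KO 3, 194 without KO 6, 367 without WT 1, 207 without WT 2, 205 without WT 3, 317 without WT 5, 366 without WT 6 and 1515 without KO 2.

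Called copper handling genes numbered 1 with the length correction, limma-voom, either pseudocount, no filter, no moderation or the replicate block, and 0 to 3 without single libraries. Zinc importers numbered 1 with pseudocount 1, median centring, quantile normalization or the replicate block, and 0 to 1 without single libraries. Zinc exporters numbered 1 with the replicate block and 1 to 3 without single libraries, other metal-responsive genes 1 to 2 and glucocorticoid-responsive genes 0 to 1 without single libraries. Acute-phase genes numbered 1 without the filter and with the replicate block and 0 to 2 without single libraries. Genes beside the cluster numbered 1 with quantile normalization and with the replicate block, and 0 to 2 without single libraries. The cause of these shifts was not tested. The correlation of Mt1 and Mt2 in WT was -0.73 without the 2 farthest libraries.

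Replicate numbers recur in both groups, but same-numbered libraries did not deviate together, with correlations from -0.36 to 0.29, and 1 of 6 WT libraries matched its own number best. The replicate block gave 813 calls over all genes against 757. Scaling moved the split of higher and lower calls to 495 and 367 with quantile normalization and to 406 and 308 with median centring. In WT, Mt3 rests on 5.05 to 14.2 estimated reads, which limits its ratio.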

Other observations

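Copper is the other metal that metallothioneins bind under normal conditions. Of 11 tested genes of copper handling (13 listed), 2 rose in KO and none fell, beside 3.12% of all tested genes called higher. The median of these 11 was 0.10, against -0.01 over all tested genes. Cox17, the copper chaperone for cytochrome c oxidase, rose from 9.82 ± 0.24 to 10.24 ± 0.22 (SD, n = 6 each), by 0.42 (SE 0.12, limma adjusted p = 0.0439). Ccs, the copper chaperone for superoxide dismutase, rose from 7.74 ± 0.12 to 8.00 ± 0.12 (SD, n = 6 each), by 0.26 (SE 0.07, limma adjusted p = 0.0498). Cox17 lost its call when KO 1, KO 3, KO 6 or a WT library other than WT 4 was left out (adjusted p up to 0.11). Ccs lost it under 16 of 22 alternatives (adjusted p up to 0.12), among them the correction for transcript length (0.0878). Named after their values were seen, the copper exporter gene Atp7a gave 0.12 (limma adjusted p = 0.396) and the importer gene Slc31a1 gave -0.16 (limma adjusted p = 0.192).

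None of 14 tested genes known to respond to glucocorticoids was called, and 2 had an unadjusted p at or under 0.05, beside 26.0% of all tested genes, with a median of -0.04. The largest estimates were those of Klf9 (-0.48, SE 0.16, limma adjusted p = 0.0872), called without KO 2 (0.0218), and of the co-chaperone gene Fkbp5 (-0.41, SE 0.15, limma adjusted p = 0.116). Named after their values were seen, in KO 6 the glutamine synthetase gene Glul stood at 12.59 and Tsc22d3 at 12.10, both above all other libraries. Cebpd, also on this list, was highest there too, while Sgk1 at 11.19 was below all other libraries. Fkbp5 was 9.60 in KO 6, within its WT range of 9.49 to 10.54. The remaining genes of the list lay in KO 6 between the extremes of the other libraries. The part of these genes in the metallothionein values was not tested.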
